A study of Mus musculus with 20 samples.

Results

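The genes of the synaptic vesicle and of the release machinery were followed through neuronal differentiation of mouse ESD3 cells, with and without knockdown of HPRT. The set held 40 genes, taken by matching a list of gene symbols, out of 37561 genes in the tables. All 40 were found, and 39 of them passed the filter on low values that 13608 genes passed. ESD3 cells are embryonic stem cells from the 129s2/SvPas mouse strain, and they were kept on feeder layers of mouse embryo fibroblasts. The control line carried a short hairpin RNA against luciferase, and the HPRT knockdown line carried a hairpin against HPRT, designed on the human gene per the study's methods. Both lines were therefore transduced and puromycin selected, and neither was an untouched parent line. Whether either line was grown from a single clone was not stated. Spherical neural masses (SNM), which are floating aggregates of neural cells, were driven to become dopaminergic neurons. Libraries were sequenced for each day from 0 to 4 and then for every other day up to day 14. There was 1 library per line and day, made from pooled RNAs of repeated cultures, so the 20 libraries held no replicate within a day. Each hairpin was represented by 1 line, and the number of transductions behind a line was not stated. The day was the unit of every test. Day 6 was kept out of the tests because the study set it aside as deviating, and its values stand at the end.

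A nerve terminal stores transmitter in small vesicles, which are filled by transporters, tethered to the active zone, primed, and fused with the membrane when calcium enters. Fusion is driven by the SNARE proteins Vamp2, Snap25 and Stx1a, is clamped and aided by complexins, and is triggered by synaptotagmins, which sense calcium. Rab3 proteins with Rims, Bsn and Pclo organize vesicles at the active zone, Unc13 proteins prime them, and dynamin, synaptojanin, endophilin and amphiphysin retrieve the membrane afterward. Most of these genes are switched on as neurons mature, and many of them are also used by endocrine cells, so their transcripts are not specific to neurons.

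The tables gave a log2 ratio for each pair of libraries and no level. The targeted gene was examined first. Hprt was lower in the knockdown on all 10 days, with 543 to 924 normalized reads in the control libraries and 20.9 to 143 in the knockdown libraries, which did not overlap. Its mean log2 ratio was -4.0 ± 0.89 (SD, n = 9 days), with an exact two-sided sign-flip permutation p of 0.00391, the smallest that 9 days can give. Normalized reads are read counts recovered from the deposited values and divided by a size factor of each library, which ranged from 0.782 to 1.523. They could be recovered for 27 of the 40 genes, and the other 13 are described by ratios only. The share of reads of a gene falls both when fewer cells of a type are present and when each cell holds less RNA of it, and these cannot be told apart in bulk samples.

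Most genes of the release machinery rose in the control line. Of the 39 genes, 33 had a rising slope on day (limma, adjusted p under 0.05) and none had a falling one, where 19.7% of all genes tested rose and 23.9% fell. The count of 0 falling genes was also 0 at an unadjusted p under 0.05. The median slope of the 39 genes was 0.123 log2 units per day, against -0.003 over all genes. The 33 slopes ran from 0.063 for Vamp1, a vesicle SNARE, to 0.332 for Rph3a, a Rab3 effector with C2 domains. The median level of the 39 genes, as a log2 change from day 0, was -0.27 on day 1, between -0.04 and 0.06 on days 2 to 4, 0.63 on day 8 and 1.24 on day 14. The 6 genes without a rising call were Syt11, Doc2a, Rab3b, Rims1, Unc13b and Sncb.

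In the HPRT knockdown line few of these genes had a called slope. Only Syngr3 and Rims1 were called rising and none was called falling, where 7.6% of all genes tested rose and 5.53% fell. At an unadjusted p under 0.05, 9 of the 39 (23.1%) had a slope in either direction, against 33.1% of all genes. The call for Rims1, which encodes an active zone scaffold, rested on a row that held 0 in 23 of the 28 tables, so it is not a rise of a measured level. Syngr3, a vesicle membrane protein, rose by 0.114 ± 0.031 log2 units per day (SE, adjusted p = 0.0441), and the number of rising calls ran from 0 to 5 with a day left out, 5 of them without day 0. The median slope was 0.012 log2 units per day, and the median level was -0.28 on day 1, -0.98 on day 2 and -0.47 on day 14, as a log2 change from day 0 of the same line. From its lowest value of -0.98, the knockdown median had climbed to -0.24 by day 12. On day 14, 35 of the 39 genes lay above their day 0 value in the control line and 13 did in the knockdown line. Over all genes the median change by then was -0.02 for the control and -0.01 for the knockdown. Each count depends on 1 starting library, and 32 of the 39 genes started higher in the knockdown than in the control.

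**Figure D1:**
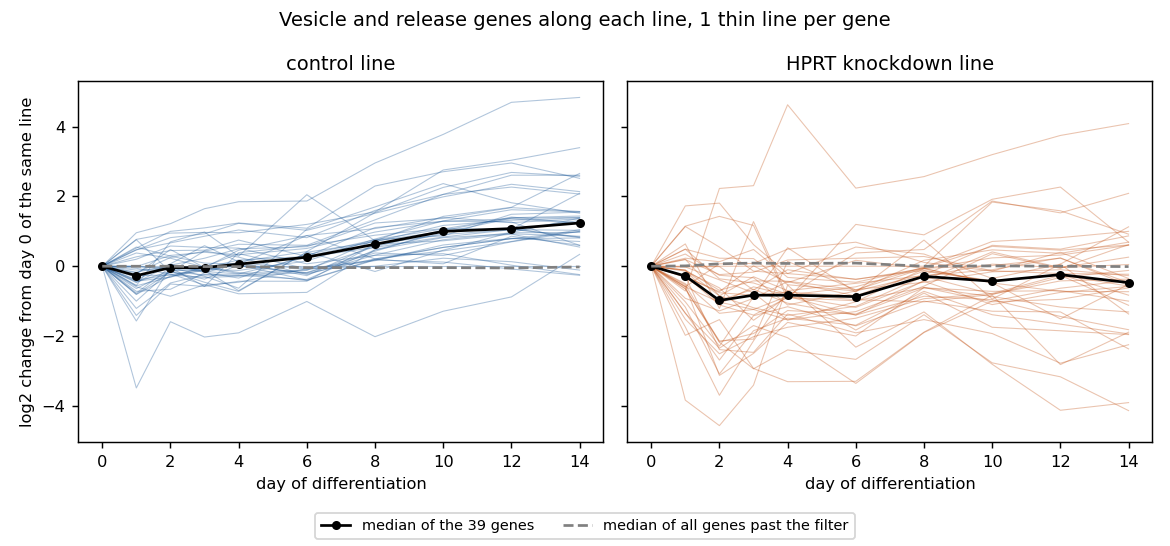
Log2 change from day 0 (vertical axis) by day of differentiation (horizontal axis) in the control line and in the HPRT knockdown line. Each thin line is 1 of 39 genes, the black line is their median and the dashed line is the median of the 13608 genes tested. The black line ends at 1.24 in the control line and at -0.47 in the knockdown line, and the dashed line stays within 0.1 of 0.

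The direct comparison within each day went from higher to lower in the knockdown library. On day 0, 32 of the 39 genes were above a log2 ratio of 0 with a median of 1.00, and on day 1, 34 were above 0 with a median of 0.94. Over all genes 48.0% and 48.1% were above 0 on those days. From day 2 to day 8 the median lay between -0.17 and 0.00. It was -0.54 on day 10, -0.53 on day 12 and -0.61 on day 14, when 30 of the 39 were below 0 against 49.5% of all genes. A change from above 0 on day 0 to below 0 on day 14 was seen in 25 of the 39 genes and in 19.5% of all genes. The opposite change was seen in 1 of the 39, Syt4, and in 21.3% of all genes.

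**Figure D2:**
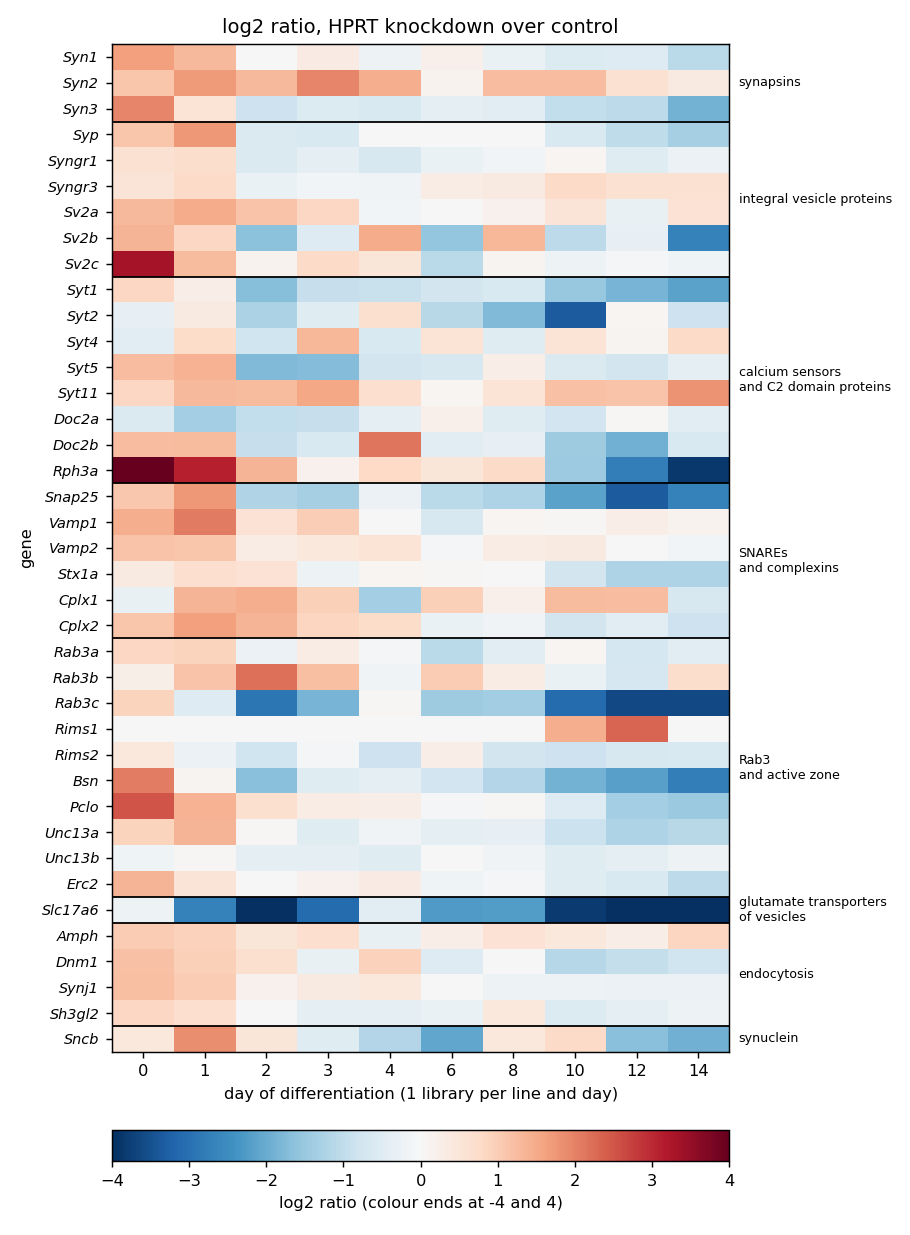
Log2 ratio of the HPRT knockdown over the control library for 39 genes (rows, grouped by role) on the 10 days (columns). Red is higher and blue is lower in the knockdown, and the colour scale ends at -4 and 4. The first columns are mostly red and the last ones mostly blue. Slc17a6 is below 0 throughout, though pale on days 0 and 4, and Syn2 and Syt11 are above 0 throughout, though pale on day 6.

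The slope of the ratio on day tests this change. It was called falling for 13 of the 39 genes and rising for none, where 6.61% of all genes fell and 7.43% rose. None of the 39 had a rising slope at an unadjusted p under 0.05 either. These 13 were Rph3a, Snap25, Bsn, Pclo, Cplx2, Syn3, Syn1, Dnm1, Unc13a, Stx1a, Erc2, Synj1 and Vamp2, and all 13 were also among the 33 that rose in the control line. That overlap is in part built in, since the ratio subtracts the same control libraries and most of the 39 rose in them. The 13 included 4 of the 6 SNAREs and complexins, 4 of the 10 Rab3 and active zone genes and 2 of the 3 synapsins. They included none of the 6 integral vesicle proteins. The median slope of the ratio was -0.116 for the SNAREs and complexins and -0.105 for the Rab3 and active zone genes. It was -0.151 for the synapsins and -0.113 for the integral vesicle proteins. The counts therefore do not set the integral vesicle proteins apart. Without day 12, 6 of the 13 were called, and the calls of Snap25, Bsn, Syn3, Dnm1, Unc13a, Synj1 and Vamp2 were lost. Because the days are successive collections of the same lines, the p-values rest on an assumption of independent days.

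**Figure D3:**
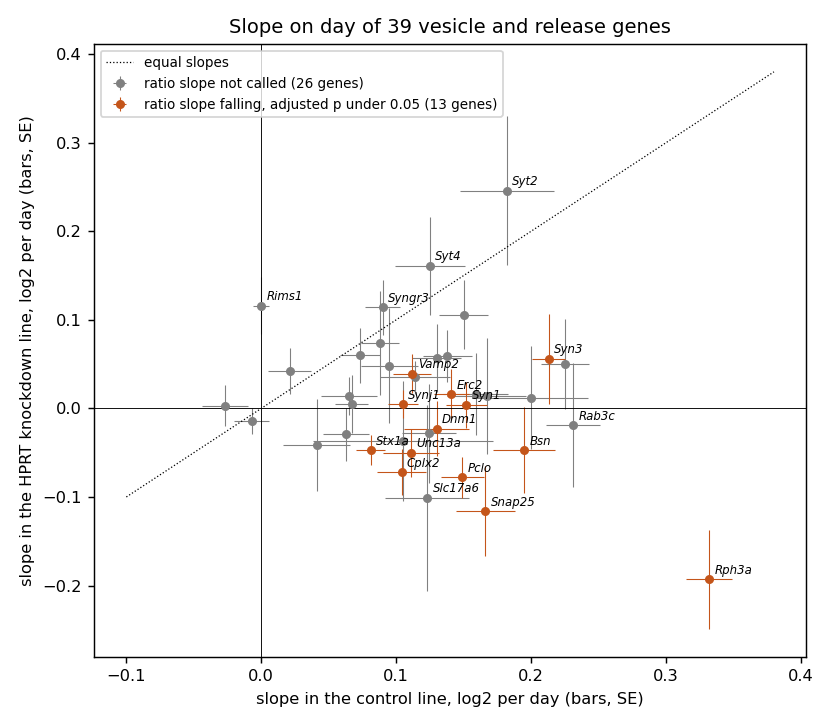
Slope on day in the control line (horizontal axis) against slope in the HPRT knockdown line (vertical axis), in log2 units per day with SE bars, for 39 genes. The 13 genes whose ratio fell with day are orange and lie below the dotted line of equal slopes, farthest below it Rph3a at 0.332 and -0.193.

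Over the 9 days 7 of the 39 were called higher and 6 lower in the knockdown, 33.3% in all, where 26.2% of all genes were called higher and 26.3% lower, 52.5% in all. The median of the 39 mean ratios was 0.02, against 0.01 over all genes. The genes called higher were Syn2, Syt11, Sv2a, Vamp1, Amph, Vamp2 and Syngr3. The genes called lower were Slc17a6, Rab3c, Syt1, Doc2a, Rims2 and Unc13b. Vamp2 alone was called both in the mean ratio and in its slope.

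Promoter sequence is shown for some of the genes, for the reasons given below. RefSeq windows of 250 bases before to 50 after the start were at hand for 31 of the 40 genes. The GC box GGGCGG, searched on both strands, was present in 27 of the 31 and in 38.2% of 27025 genes with a window, while the TATA box TATAAA was present in 2 of the 31, Sv2b and Rab3b, and in 15.7%. The cAMP response element TGACGTCA was found in Syn1 and Sh3gl2, and in 2.03% of genes. The RE1 element is the site of the repressor REST, which keeps neuronal genes off outside neurons. Its left arm, TTCAGCACC, was found in Syn1 and Unc13a and in 0.433% of genes, and its right arm in Unc13a and in 0.614%. A match is a run of letters and not a measured site, and a run that differs from the motif by a letter was not counted. The sequences follow, 5′ to 3′ on the strand of the gene and placed on NCBIM37, with the motifs in capitals. Syn1 and Unc13a are shown for the RE1 arms, both being among the 13 whose ratio fell. Any link between these letters and the ratio was not tested. Slc17a6 and Syn2 are shown for their GC boxes, having the lowest and the highest mean ratio of the set.
Syn1, chrX:20498243-20498294, minus strand, bases -250 to -199: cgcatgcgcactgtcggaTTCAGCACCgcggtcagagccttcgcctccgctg
Unc13a, chr8:74195626-74195652, minus strand, bases 5 to 31 after the start: GGCGCTGTCCgcgcccccGGTGCTGAA
Slc17a6, chr7:58877080-58877199, plus strand, bases -120 to -1: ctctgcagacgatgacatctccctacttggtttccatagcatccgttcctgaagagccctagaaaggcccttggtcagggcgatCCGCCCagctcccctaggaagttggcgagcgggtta
Syn2, chr6:115084800-115084919, plus strand, bases -120 to -1: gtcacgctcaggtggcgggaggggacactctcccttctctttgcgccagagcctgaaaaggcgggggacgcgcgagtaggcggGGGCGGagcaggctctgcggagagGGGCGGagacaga

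In Unc13a the arms lie on the opposite strand and are 8 bases apart, both within the transcribed part. Syn1 also held its cAMP response element at base -159. Positions are counted from the RefSeq start, which for Syn1 lies 86 bases inside the gene as annotated on NCBIM37 and for the other 3 genes is the annotated start.

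The synapsins coat vesicles and hold them in a reserve pool. Syn2 (Gene ID 20965, NCBIM37 chromosome 6, 115084920 to 115232644, plus strand) was higher in the knockdown on each of the 10 days. In the control libraries it had 207, 153, 189, 151 and 123 normalized reads on days 0 to 4, 270 on day 6, and 179, 273, 388 and 512 on days 8, 10, 12 and 14. In the knockdown libraries it had 439, 511, 459, 587 and 337 on days 0 to 4, 305 on day 6, and 417, 635, 591 and 657 on days 8, 10, 12 and 14. Every knockdown library before day 6 lay above every control library of those days, and the lines came closest on day 6. The tables of Syn2 disagreed by up to 0.06 around loops of neighboring days, so these reads do not match every table. Its mean log2 ratio was 1.21 ± 0.50 (SD, n = 9 days, limma adjusted p = 0.000246). Syn1 and Syn3 were not called in the mean ratio but fell in its slope. The log2 ratio of Syn1 was 1.65, 1.31, -0.01, 0.34 and -0.21 on days 0 to 4, 0.19 on day 6, and -0.28, -0.56, -0.53 and -1.09 on days 8 to 14, a slope of -0.151 ± 0.031 per day (SE, adjusted p = 0.0178) that was not called without day 14. Its tables disagreed by up to 0.12 around loops of neighboring days. Syn3 had log2 ratios of 1.94, 0.54, -0.84, -0.55 and -0.60 on days 0 to 4, -0.35 on day 6, and -0.42, -1.0, -1.05 and -1.89 on days 8 to 14. Its slope was -0.164 ± 0.047 (SE, adjusted p = 0.0484), and 10 of the 14 alternatives, including each single day left out but day 2, did not call it. None of the 3 synapsins was called rising in the knockdown line.

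The integral vesicle proteins Syp, Syngr1, Syngr3, Sv2a, Sv2b and Sv2c all rose in the control line, with slopes from 0.090 for Syngr3 to 0.225 for Sv2c. Synaptophysin (Syp), the standard marker of synaptic vesicles, had 342, 149, 246, 290 and 306 normalized reads on days 0 to 4 in the control and 943 on day 14. The knockdown had 730, 503, 162, 191 and 302 on days 0 to 4 and 372 on day 14, so the lines crossed after day 1. The mean log2 ratio of Syp was -0.15 ± 1.00 (SD, adjusted p = 0.688) and its slope missed the threshold (-0.145 ± 0.044, SE, adjusted p = 0.0587). Sv2a, the glycoprotein that binds levetiracetam, had a mean log2 ratio of 0.62 ± 0.63 (SD, adjusted p = 0.0211), with 1.3, 1.47, 1.13, 0.84 and -0.12 on days 0 to 4, -0.03 on day 6, and 0.18, 0.52, -0.31 and 0.57 on days 8 to 14. It was not called without day 2 or when the pairing by day was dropped. Sv2c had its highest ratio on day 0, at 3.32, and ratios from -0.20 to 1.27 on the other 8 days tested. Syngr3 had log2 ratios of 0.51, 0.75, -0.28, -0.10 and -0.13 on days 0 to 4, 0.31 on day 6, and 0.37, 0.76, 0.60 and 0.60 on days 8 to 14. Its mean of 0.34 ± 0.40 (SD, adjusted p = 0.0481) was the smallest called among the genes higher in the knockdown, and 9 of the 15 alternatives, among them leaving out day 0, 1, 8, 10, 12 or 14, did not call it. The log2 ratio of Sv2b swung between -2.70 and 1.49 from day to day with no call, on 14.8 to 142 normalized reads in the control and 11.2 to 93.5 in the knockdown.

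Among the calcium sensors, Syt1, the main trigger of fast release, and Syt11, a synaptotagmin that does not bind calcium, moved in opposite directions. The log2 ratio of Syt1 was 0.84 on day 0 and 0.27 on day 1. It was then -1.69, -0.93 and -0.88 on days 2 to 4, -0.75 on day 6, and -0.62, -1.52, -1.86 and -2.13 on days 8, 10, 12 and 14. Syt1 was thus lower in the knockdown from day 2 onward, with a mean of -0.95 ± 1.00 (SD, adjusted p = 0.0234) that was not called without day 2, 10, 12 or 14, or by the exact sign-flip permutation test. The log2 ratio of Syt11 was 0.83, 1.31, 1.26, 1.56 and 0.67 on days 0 to 4, 0.07 on day 6, and 0.56, 1.18, 1.15 and 1.8 on days 8 to 14. Its mean was 1.15 ± 0.40 (SD, adjusted p = 0.000139), and it did not pass the test for a slope in either line (0.021 and 0.042 log2 units per day).

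Doc2a, a C2 domain protein of asynchronous release, was lower at -0.65 ± 0.41 (SD, adjusted p = 0.00263). By day the log2 ratio of Doc2a was -0.57, -1.36, -1.0, -0.92 and -0.37 on days 0 to 4, 0.21 on day 6, and -0.49, -0.76, 0.04 and -0.41 on days 8 to 14, so it was below 0 on 8 of the 9 days tested. Its relative Doc2b was not called (-0.13 ± 1.36, adjusted p = 0.812). Syt4, which is induced by activity, rose in the control line from 350 normalized reads on day 2 to 1254 on day 12. It reached 1998 in the knockdown on day 14, but its slope there was not called (0.161 ± 0.055, SE, adjusted p = 0.0801), and it had 198 on day 2 and 1115 on day 3. Syt5 had 137 normalized reads on day 0 and 15.5 on day 2 in the knockdown, with no call in the ratio. The tables of Syt2 differed by up to 3.10 log2 units around neighboring days, and its values are not read further.

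Rph3a (Gene ID 19894, chromosome 5, 121390511 to 121459527, minus strand), which encodes rabphilin, showed the steepest change of the set. In the control line it had 7.52, 14.8, 17.6, 23.6 and 22.2 normalized reads on days 0 to 4, 22.6 on day 6, and 47.3, 83.4, 157 and 173 on days 8, 10, 12 and 14. In the knockdown it had 203, 130, 44.9, 26.4 and 38.4 on days 0 to 4, 31.7 on day 6, and 78.5, 30.3, 23 and 11.8 on days 8, 10, 12 and 14. The control rose at each step but that from day 3 to day 4, while the knockdown started above every control library and ended below all but the one of day 0. The slope of its log2 ratio was -0.493 ± 0.067 per day (SE, adjusted p = 0.0061), from 4.77 on day 0 to -3.87 on day 14. The mean ratio was not called (0.32 ± 2.72, SD, adjusted p = 0.764). The lowest value rests on 7 reads, with an exact 95% Poisson interval of 2.81 to 14.4 reads that covers counting error only.

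**Figure D4:**
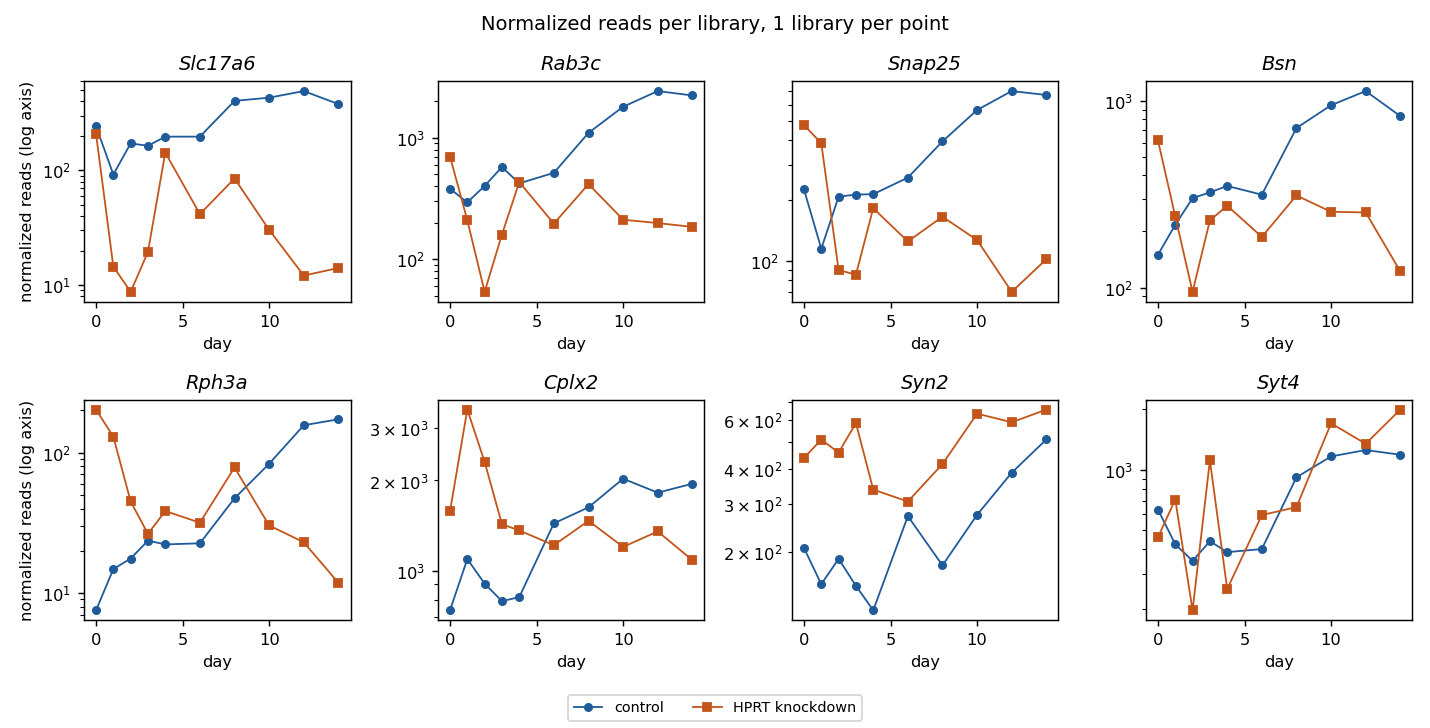
Normalized reads on a log axis (vertical) by day of differentiation (horizontal) for 8 genes, with 1 library per point, circles for the control and squares for the HPRT knockdown. The control lies above the knockdown from day 10 onward for Slc17a6, Rab3c, Snap25, Bsn and Rph3a, the lines of Cplx2 cross between days 4 and 6, and Syn2 is higher in the knockdown on each day.

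The SNARE genes rose in the control line, and the knockdown started higher and ended lower for the target membrane SNAREs. Snap25 (Gene ID 20614, chromosome 2, 136539189 to 136608164, plus strand) had 227, 115, 209, 214 and 215 normalized reads on days 0 to 4 in the control, 260 on day 6, and 394, 565, 702 and 671 on days 8, 10, 12 and 14. In the knockdown it had 475, 386, 90.1, 85.3 and 183 on days 0 to 4, 125 on day 6, and 166, 127, 70.1 and 102 on days 8, 10, 12 and 14. The knockdown libraries of days 2 to 14 were all below the control library of the same day. The slope of the log2 ratio was -0.279 ± 0.056 per day (SE, adjusted p = 0.0175), and the mean ratio of -1.04 ± 1.67 (SD) was not called (adjusted p = 0.104). The slope was not called without day 12.

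Stx1a, the syntaxin that pairs with Snap25, also had a falling slope. Its log2 ratio was 0.37, 0.68, 0.59, -0.21 and 0.09 on days 0 to 4, 0.04 on day 6, and 0.03, -0.72, -1.22 and -1.23 on days 8 to 14, a slope of -0.131 ± 0.020 (SE, adjusted p = 0.00845). The vesicle SNAREs were higher on average in the knockdown. Vamp2, the main vesicle SNARE, had a mean log2 ratio of 0.46 ± 0.42 (SD, adjusted p = 0.0173), not called when the pairing by day was dropped. Its log2 ratio was 1.13, 1.1, 0.31, 0.42 and 0.55 on days 0 to 4, -0.09 on day 6, and 0.31, 0.36, 0.03 and -0.11 on days 8 to 14. The slope was -0.069 ± 0.018 (SE, adjusted p = 0.034), and 8 of the 14 alternatives, among them leaving out day 0, 1, 4, 8, 10, 12 or 14, did not call it. Vamp1 had a mean of 0.62 ± 0.74 (SD, adjusted p = 0.0409), with 1.45, 2.09, 0.58, 0.98 and -0.02 on days 0 to 4, -0.64 on day 6, and 0.07, 0.05, 0.26 and 0.14 on days 8 to 14. The 4 highest values were those of days 0 to 3, and 7 of the 14 alternatives, among them leaving out day 0, 1, 2, 3 or 12, did not call it.

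The complexins bind the assembled SNARE bundle. Cplx2 had the highest level of the 27 genes with recovered reads, at a median of 257 normalized reads per kb of exon in the control and 283 in the knockdown, whereas Vamp1 had the lowest control median at 3.59. Cplx2 had 737, 1093, 905, 791 and 816 normalized reads on days 0 to 4 in the control, 1438 on day 6, and 1627, 2027, 1821 and 1951 on days 8 to 14. The knockdown had 1578, 3449, 2308, 1429 and 1362 on days 0 to 4, 1216 on day 6, and 1467, 1200, 1352 and 1084 on days 8 to 14. The knockdown was higher up to day 4 and lower from day 6 onward. The slope of the log2 ratio was -0.176 ± 0.020 per day (SE, adjusted p = 0.00345). Cplx1 was not called in either test, and its log2 ratio ran from -1.35 to 1.44.

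Of the Rab3 genes, Rab3c was called lower in the knockdown. Rab3c (Gene ID 67295, chromosome 13, 110844395 to 111071109, minus strand) had 380, 293, 401, 574 and 421 normalized reads on days 0 to 4 in the control, 514 on day 6, and 1098, 1804, 2430 and 2235 on days 8 to 14. In the knockdown it had 701, 209, 53.6, 159 and 431 on days 0 to 4, 196 on day 6, and 415, 211, 198 and 184 on days 8 to 14. The lines overlapped early, and from day 8 each knockdown library was below each control library. The mean log2 ratio was -1.78 ± 1.65 (SD, adjusted p = 0.013), and the slope was just short of the threshold (-0.245 ± 0.071, SE, adjusted p = 0.0501). Rab3a, the main vesicle Rab3, had a mean of 0.04 ± 0.55 (SD, adjusted p = 0.875) and rose in the control line at 0.138 ± 0.018 per day (SE, adjusted p = 0.000923). Rab3b had a mean of 0.52 ± 0.89 (SD, adjusted p = 0.125).

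The large scaffolds of the active zone, Bsn (bassoon) and Pclo (piccolo), both began above and ended below the control. Bsn had 150 normalized reads in the control and 616 in the knockdown on day 0, and 832 and 122 on day 14. Its log2 ratio was 2.05, 0.12, -1.66, -0.50 and -0.35 on days 0 to 4, -0.78 on day 6, and -1.18, -1.90, -2.17 and -2.76 on days 8 to 14, with a slope of -0.234 ± 0.054 (SE, adjusted p = 0.0263) that was not called without day 1, 10, 12 or 14. That of Pclo fell without a break up to day 4, with 2.51, 1.38, 0.64, 0.31 and 0.28, was -0.09 on day 6 and 0.05 on day 8, and was -0.51, -1.36 and -1.50 on days 10 to 14 (slope -0.229 ± 0.032, SE, adjusted p = 0.00632).

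Erc2, another scaffold, had a slope of -0.124 ± 0.021 (SE, adjusted p = 0.0111). Erc2 had log2 ratios of 1.35, 0.52, 0.03, 0.17 and 0.32 on days 0 to 4, -0.17 on day 6, and -0.06, -0.47, -0.61 and -1.06 on days 8 to 14. Of the priming factors, Unc13a had a log2 ratio of 0.89, 1.36, 0.05, -0.48 and -0.14 on days 0 to 4, -0.36 on day 6, and -0.32, -0.86, -1.25 and -1.11 on days 8 to 14. Its slope was -0.148 ± 0.030 (SE, adjusted p = 0.0176) and was not called without day 12. Unc13b had no called slope, and it was lower by a small and even amount, -0.28 ± 0.18 (SD, adjusted p = 0.008), with 511 to 806 normalized reads in the control and 432 to 627 in the knockdown. By day its ratio was -0.18, 0.05, -0.35, -0.38 and -0.49 on days 0 to 4, -0.03 on day 6, and -0.14, -0.49, -0.38 and -0.19 on days 8 to 14. The lines of Unc13b had slopes of -0.007 and -0.014 log2 units per day that were not called. Rims2, the Rab3-interacting scaffold, was lower at -0.48 ± 0.42 (SD, adjusted p = 0.0138), with 0.41, -0.23, -0.79, -0.08 and -0.82 on days 0 to 4, 0.26 on day 6, and -0.72, -0.82, -0.64 and -0.61 on days 8 to 14. Rims1 had 2 rows, of which the first was 0 in all 28 tables and the second in 23, and it is not read further.

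The vesicular glutamate transporters fill vesicles with glutamate, and both were lower in the knockdown on each of the 9 days tested. Slc17a6 (VGLUT2, Gene ID 140919, chromosome 7, 58877200 to 58926495, plus strand) had the lowest mean ratio of the set. The control libraries had 243, 92.1, 172, 164 and 197 normalized reads on days 0 to 4, 197 on day 6, and 404, 431, 492 and 379 on days 8 to 14. The knockdown libraries had 209, 14.5, 8.73, 19.5 and 143 on days 0 to 4, 41.6 on day 6, and 85.0, 30.3, 12.1 and 14.1 on days 8 to 14. The lines were close on days 0 and 4 only. The mean log2 ratio was -2.98 ± 1.8 (SD, n = 9 days, adjusted p = 0.00139), with -5.35 on day 12 as its lowest value.

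Slc17a7 (VGLUT1, Gene ID 72961, chromosome 7, 52419291 to 52431508, plus strand) was under the filter and was not tested. It had 12.6 to 91.3 normalized reads in the control, a median of 23.9, and 3.45 to 20.7 in the knockdown, a median of 9.36. The 91.3 was the control library of day 6, which was not tested, and the next highest control value was 42.1 on day 12. The mean log2 ratio of Slc17a7 was -1.46 ± 0.63 (SD, n = 9 days). Per kb of exon the control median was 50.9 normalized reads for Slc17a6 and 8.12 for Slc17a7. All 10 knockdown values of Slc17a7 rest on 3 to 19 reads, and the 3 reads of Slc17a7 on day 2 have an exact 95% Poisson interval of 0.619 to 8.77 reads.

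The genes of membrane retrieval rose in the control line in all 4 cases, with slopes from 0.067 for Sh3gl2 (endophilin) to 0.130 for Dnm1 (dynamin 1, which cuts vesicles from the membrane). Dnm1 had 359 normalized reads in the control and 793 in the knockdown on day 0, and 952 and 543 on day 14. Dnm1 had log2 ratios of 1.16, 0.94, 0.63, -0.30 and 0.93 on days 0 to 4, -0.53 on day 6, and 0.01, -1.13, -0.95 and -0.80 on days 8 to 14, and the slope was -0.151 ± 0.030 (SE, adjusted p = 0.0166), not called without day 12. Synj1 (synaptojanin, which sheds the clathrin coat) had a slope of -0.094 ± 0.020 (SE, adjusted p = 0.0209), not called without day 12. Its log2 ratio was 1.2, 1.03, 0.18, 0.36 and 0.42 on days 0 to 4, -0.03 on day 6, and -0.20, -0.21, -0.23 and -0.25 on days 8 to 14. Amph (amphiphysin) was higher in the knockdown at 0.55 ± 0.40 (SD, adjusted p = 0.00542), above 0 on 8 of the 9 days tested, and was not called when the pairing by day was dropped. Amph had log2 ratios of 1.0, 0.91, 0.49, 0.68 and -0.29 on days 0 to 4, 0.25 on day 6, and 0.59, 0.41, 0.28 and 0.85 on days 8 to 14. Its normalized reads ran from 281 to 613 in the control and from 262 to 937 in the knockdown. Sh3gl2 was not called in the ratio. Sncb (beta-synuclein) was not called in any test, and in the control line it went from 165 normalized reads on day 0 to 14.8 on day 1 and 230 on day 14.

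A list of other presynaptic genes was counted in the same way. Of 74 genes listed, 66 were tested. Of these, 44 rose and 2 fell in the control line, and 7 rose and 2 fell in the knockdown line. As shares, 66.7% rose in the control line against 19.7% of all genes, and 10.6% rose in the knockdown line against 7.6%. The ratio fell with day for 19 (28.8%, against 6.61% of all genes) and rose for 2 (3.03%, against 7.43%). Over the course 21 were called higher (31.8%, against 26.2%) and 9 lower (13.6%, against 26.3%) in the knockdown, with a median of 0.06. The lowest mean log2 ratios among those called were -2.07 ± 1.71 (SD, adjusted p = 0.0074) for Slc32a1, which fills vesicles with GABA, -1.69 ± 1.60 (adjusted p = 0.0143) for Sncg (gamma-synuclein) and -1.52 ± 0.91 (adjusted p = 0.00143) for Rims3. Among the highest were 1.5 ± 0.86 (adjusted p = 0.00112) for Rab27b and 1.24 ± 1.27 (adjusted p = 0.0208) for Syt12.

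Markers of other cell types were counted beside these genes, and their counts are to be read against the 26.2% of all genes called higher and 26.3% called lower through the course, and the 19.7% that rose and 23.9% that fell in the control line. Of 10 neuron markers tested out of 12, 7 were lower in the knockdown and none higher, with a median log2 ratio of -1.94, and 6 rose in the control line. The summed normalized reads of the 5 neuron markers with recovered reads (Elavl3, Elavl4, Nefm, Stmn2 and Stmn3) ran from 4395 to 11834 in the control and from 2495 to 5430 in the knockdown. On day 0 this sum was 7133 in the control and 5301 in the knockdown, when the sum of the 27 vesicle genes was 5883 and 10964. On day 14 the sums were 8757 and 3519 for the neuron markers and 15664 and 9344 for the vesicle genes. The sum is weighted by abundance, and on day 0 its 5 genes lay on both sides of 0, with log2 ratios of 0.80 for Elavl3, 0.27 for Stmn3, -0.59 for Stmn2, -0.68 for Elavl4 and -2.16 for Nefm.

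Granule genes of neuroendocrine cells (7 tested) had a sum of 1550 in the control and 3229 in the knockdown on day 0, and 3101 and 2581 on day 14. Of these 7, 6 rose in the control line and none in the knockdown line. Oligodendrocyte markers (9 tested) rose with day in the knockdown line for 5 (7.6% of all genes did) and fell in the control line for 3. Through the course 3 of the 9 were called higher and none lower. The sum of the 4 with recovered reads was 9311 in the control and 4811 in the knockdown on day 0. It was 1489 in the control and 60725 in the knockdown on day 14. The knockdown sum went from 24287 on day 3 to 4944 on day 4. Astrocyte and radial glia markers were higher in the knockdown for 6 of 7. All 6 pluripotency markers were lower in the knockdown, with a median of -2.81. Of 6 markers of fibroblasts, the feeder cells, 2 were lower and none higher, and 3 rose in the control line. Of 6 neural progenitor markers 2 were higher and 2 lower, and of 3 endoderm markers tested out of 6, 1 was higher and 1 lower. Afp, Ttr and Apoa1 were under the filter. The part of these markers in the results on vesicle genes was not tested.

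On day 6, which was kept out of the tests, 12 of the 39 genes were above a log2 ratio of 0 and 26 below, with a median of -0.17 and a range from -2.27 for Slc17a6 to 1.02 for Rab3b. Syn2 and Syt11, which were well above 0 on each of the other days, had 0.15 and 0.07. The 4 pluripotency markers with recovered reads had a summed 6624 normalized reads in the knockdown, the highest of that line, and 2403 in the control. By gene, the pluripotency markers were mixed on day 6, with log2 ratios from 2.13 for Pou5f1 to -0.73 for Zfp42. Tdgf1 was also below 0, at -0.13.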

How the data were processed

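RNA-seq had been done on 20 libraries of differentiating SNM cells, 10 per line, grouped by the labels. Per the study's methods, libraries were made with a TruSeq kit and reads were aligned to NCBI37/mm9 by ELAND within CASAVA 1.8.2. The authors quantified genes in Avadis NGS and normalized them with DESeq. The sequencing lane of each library and the use of strand in counting are not given in the sources used here. No lane batch could therefore be examined, and genes sharing exonic bases with an overlapping or antisense gene cannot be told apart from it. The authors deposited log2 values in 28 tables, each of which held a pair of libraries: 10 paired the lines within a day and 9 per line paired consecutive days. In each table the mean of the pair had been subtracted, so a pair of values gives a log2 ratio. Tables were normalized separately by the authors, and values at or under 1 normalized count had entered as 0, which understates ratios of low genes.

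The rounding step of the deposited single-precision values gave a typical log2 count per gene, and genes at 4 or more were tested (13608 of 37561). Reads were recovered by searching, in units of 1/49 read, for the smallest set of 20 counts that gave the deposited ratios of 27 tables. Where the loops of a gene did not close between neighboring days, as for Syn2, step tables of those days were also left out. The table of days 3 and 4 of the control line was at odds with the others, since its loop with the neighboring tables closed within 0.0001 for 0.118% of the genes tested, against 90.5 to 92.1% for the other steps. It was left out of that search, but it was used as deposited in the slopes. Of 1000 genes drawn at random, 56.9% were recovered, and size factors disagreed between tables by at most 0.026 log2 units. Values joined along a line add steps from tables that were normalized separately. Exon lengths and coordinates are of GENCODE M1 on NCBIM37, matched by symbol. Promoter windows are RefSeq's for GRCm38.p6, and the printed stretches were placed on NCBIM37 by exact match.

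Ratios and slopes were tested with limma 3.58.1 in R 4.3.3 over 9 days, with Benjamini-Hochberg adjustment over all 13608 genes and a threshold of 0.05. The libraries were paired by day, since both lines were collected on the same days. Deviations of same-day libraries from their line means correlated across genes at 0.131 to 0.412 on 8 of the 9 days and at -0.0321 on day 0. Days of a line are successive collections, so p-values measure the spread between days, which may include technical spread. The fits were tested on simulated data. Alternatives were another filter or none, day 6 kept, each day left out, median centring, log2(day + 1), an exact sign-flip test, an unpaired fit and another route between days 3 and 4. The 40 genes and all gene lists were chosen with earlier results of these data known. By the rule for named genes, day-by-day values were due for the called genes with the largest mean ratios or slopes and for paralogs that moved in opposite directions, and they are given for all genes called in the mean ratio or its slope. No column of another series was present. The deposited readme was not used. From the list of other presynaptic genes, 1 gene that the rule would name is not reported here.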

Additional observations from a re-analysis of the deposited data

Results flagged for a closer look

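The slope on day differed between the lines, tested as the slope of the within-day log2 ratio (HPRT knockdown minus control, limma, adjusted p under 0.05 over all genes), for 13 of the 39 genes. In log2 units per day it was -0.493 for Rph3a, -0.279 for Snap25, -0.234 for Bsn, -0.229 for Pclo, -0.176 for Cplx2 and -0.164 for Syn3. It was -0.151 for Syn1 and for Dnm1, -0.148 for Unc13a, -0.131 for Stx1a, -0.124 for Erc2, -0.094 for Synj1 and -0.069 for Vamp2. All 13 slopes were negative.

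The log2 ratio of Sv2c, a vesicle glycoprotein, on day 0 stood apart from the other 8 days tested, at 3.32. The gap to the next day was 0.581 of the whole range. Chance flags about 1 in 20 such groups, and 39 genes were examined. In the loops of neighboring days the tables of Sv2c differed by up to 0.15.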

How the results depend on the processing

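The count of members rising in the control line was within 1.5 times of 33 under the alternatives apart from the filter at a log2 count of 8, which gave 21 because it tested 23 of the 39, and 31 to 33 were called with a day left out (0 to 1 falling). The 7 members higher through the course numbered 3 when the pairing by day was dropped (no replicate block), when Sv2a, Amph, Vamp2 and Syngr3 were lost, with 6 lower as before, and 5 to 7 higher and 5 to 8 lower with a day left out. The 13 members with a falling ratio numbered 6 to 18 with a day left out. The 2 rising members of the knockdown line numbered 1 at a log2 count of 8, 0 without a filter, 1 with day 6 kept, 0 on log2(day + 1) and 0 to 5 with a day left out, and 1 falling was called at a log2 count of 8 and 0 to 3 with a day left out. The cause was not tested. The mean ratio of Hprt stayed called throughout. No called member changed sign. Of 13 members called through the course 7 kept the call under every alternative that included them, and of 13 called in the slope of the ratio 5 did. The totals of reads per library were not used here, so the limit that depth sets is known only for genes with recovered reads.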
